A study of Mus musculus with 48 samples.

Results

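The cell division cycle copies the genome in S phase and shares it out in mitosis, and each stage has its own set of transcripts. Described here are 44 genes of these stages, 21 of S phase and 23 of mitosis, chosen by name and matched by symbol among 55487 genes with RNA read counts; all 44 were found and all passed the filter on low counts that left 17494 genes for testing. RNA had been sequenced from limb cells of C57BL/6 mice at postnatal day 3, sorted into 3 successive populations of the skeletal lineage: SSC, the stem cells; BCSP, progenitors of bone, cartilage and stroma; and pBCSP, the stage before BCSP. Every mouse carried floxed Ptip alleles (Ptipf/f). In the group called WT there was nothing further, and in the group called KO there was also a Cre recombinase driven by Col2a1, which encodes the chief collagen of cartilage (Ptipf/f;Col2a1-cre). Each of the 6 groups had 2 RNA libraries. Ptip, now Paxip1, encodes an adaptor of histone H3 lysine 4 methyltransferase complexes that also acts in the response to broken DNA. The labels say neither whether animals were pooled nor if the replicates of a group are different animals; the p-values below therefore measure only how far these libraries spread, which may be technical.

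As background, S phase genes are switched on at the end of G1, when cyclin E and its kinase release E2F transcription factors from the retinoblastoma proteins. Their products load and open the replicative helicase, supply nucleotides and rebuild chromatin. Mitosis genes follow in G2, when complexes built from MuvB proteins with B-Myb and then FOXM1 act at a promoter element called the cell cycle genes homology region (CHR), often beside CCAAT boxes bound by NF-Y. In the growing limb the dividing cells are mainly skeletal progenitors and the column-forming chondrocytes of the growth plate.

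Libraries held 15495915 to 22670899 counts. A read was seen in 20965 to 23831 genes in 11 of them and in 13987 genes in SSC KO replicate 2, which stands apart. That library was the lowest of the 12 for 36.7% of all genes tested, for 33.3% of the S phase genes and for 82.6% of the mitosis genes. The median log2 difference between the replicates of a group, over all genes tested, was 0.98 in SSC KO and 0.37 in SSC WT. Differences below that rest on SSC KO are therefore also given without its replicate 2. Levels are given as CPM, read counts scaled to the effective size of the library. Paxip1 was at 7.25 to 14.6 CPM in the 6 WT libraries and at 0 to 3.48 CPM in the 6 KO libraries, with no overlap. Of the listed chondrocyte markers 10 of 10 had reads in every group, with summed levels of 32231 to 89656 CPM. All 7 osteoblast markers were found too, with Bglap listed at 0 in both pBCSP KO libraries, and so were all 8 skeletal progenitor markers.

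The promoters of the 2 sets differed in the letters they hold. Promoter windows of 300 bases, from 250 before to 50 after a start site, were at hand for 36 of the 44 genes, 17 of S phase and 19 of mitosis, in the RefSeq annotation of GRCm38.p6. They were searched on both strands for 3 motifs. The CHR was searched as TTTGAA and, in a form that is also in use, as TTCGAA. The CCAAT box was the string of its name. The E2F-like site was any of 4 strings. One of these is TTGGCGC, another of the set is TTGCCGC, a further one is TTCGCGC and the last of them is TTCCCGC. An E2F-like match and a CCAAT match can share bases. The 8 windows below run from 170 bases before to 30 after the start, 5′ to 3′ on the strand of the gene, and capitals mark the matches. They show genes named in the results below, chosen after values were seen.

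Mcm5 (S phase), chr8:75109339-75109538, plus strand: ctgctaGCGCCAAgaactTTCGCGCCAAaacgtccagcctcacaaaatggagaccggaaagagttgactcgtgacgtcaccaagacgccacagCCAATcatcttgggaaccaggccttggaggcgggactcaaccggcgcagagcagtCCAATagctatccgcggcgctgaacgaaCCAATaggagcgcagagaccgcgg
Mcm6 (S phase), chr1:128359676-128359875, minus strand: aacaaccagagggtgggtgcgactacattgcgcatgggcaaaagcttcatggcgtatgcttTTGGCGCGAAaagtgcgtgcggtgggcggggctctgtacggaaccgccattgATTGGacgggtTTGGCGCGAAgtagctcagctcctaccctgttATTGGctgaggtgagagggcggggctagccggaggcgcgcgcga
Cdc6 (S phase), chr11:98907981-98908180, plus strand: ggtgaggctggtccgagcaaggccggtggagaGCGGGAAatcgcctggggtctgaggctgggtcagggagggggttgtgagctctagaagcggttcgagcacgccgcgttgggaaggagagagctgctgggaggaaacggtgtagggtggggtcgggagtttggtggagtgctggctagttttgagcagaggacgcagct
Tyms (S phase), chr5:30073596-30073795, minus strand: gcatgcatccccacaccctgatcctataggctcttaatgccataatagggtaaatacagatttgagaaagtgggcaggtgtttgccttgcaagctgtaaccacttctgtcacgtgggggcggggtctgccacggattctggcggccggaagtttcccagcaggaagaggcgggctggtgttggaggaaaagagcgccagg
Cdk1 (mitosis), chr10:69352883-69353082, minus strand: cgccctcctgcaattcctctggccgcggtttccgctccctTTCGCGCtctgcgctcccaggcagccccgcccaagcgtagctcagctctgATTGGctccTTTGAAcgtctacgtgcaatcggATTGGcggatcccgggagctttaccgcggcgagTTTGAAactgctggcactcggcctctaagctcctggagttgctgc
Ccnb1 (mitosis), chr13:100786457-100786656, minus strand: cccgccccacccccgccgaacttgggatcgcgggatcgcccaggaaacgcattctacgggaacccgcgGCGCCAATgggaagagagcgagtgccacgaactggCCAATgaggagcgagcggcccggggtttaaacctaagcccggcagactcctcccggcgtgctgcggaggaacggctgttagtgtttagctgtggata
Cdc20 (mitosis), chr4:118437314-118437513, minus strand: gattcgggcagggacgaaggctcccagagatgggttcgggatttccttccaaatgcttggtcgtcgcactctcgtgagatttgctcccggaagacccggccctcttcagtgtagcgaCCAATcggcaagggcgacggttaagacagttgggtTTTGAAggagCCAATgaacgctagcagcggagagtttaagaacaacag
Kif11 (mitosis), chr19:37376212-37376411, plus strand: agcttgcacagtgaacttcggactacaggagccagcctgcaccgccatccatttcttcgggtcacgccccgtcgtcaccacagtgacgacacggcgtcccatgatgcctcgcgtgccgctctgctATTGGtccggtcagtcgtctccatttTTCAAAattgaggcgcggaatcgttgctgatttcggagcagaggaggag

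In Cdc20 and Kif11 a CHR lies a short way upstream of the start, with a CCAAT box before it (in Cdc20 also after it), and Cdk1 holds a pair of CHR letters in the same arrangement. Ccnb1 has 2 CCAAT boxes and no CHR letters in the window. Mcm5 and Mcm6 carry overlapping E2F-like matches, Cdc6 has 1, and the window of Tyms holds none of the 3 motifs. Over the whole 300 bases a CHR was found in 15 of 19 mitosis genes (78.9%, Wilson 95% interval 56.7 to 91.5%) and in 3 of 17 S phase genes (17.6%, 6.19 to 41.0%), against 21.7% of the 27025 genes of the table. An E2F-like site was found in 12 of 17 S phase genes (70.6%, 46.9 to 86.7%) and in 4 of 19 mitosis genes (21.1%, 8.51 to 43.3%), against 10.9% of all genes. The 4 mitosis genes were Ccnb1, Cdk1, Hmmr and Mki67. CCAAT boxes stood in 17 of 19 mitosis genes (89.5%) and 11 of 17 S phase genes (64.7%), against 41.1% of all genes. A CHR and a CCAAT box together were found in 15 of 19 mitosis genes, in 2 of 17 S phase genes and in 8.61% of all genes. Among the 13923 genes with an H3K4me3 peak at a start in WT SSC, the shares were 16.6% for CHR, 18.4% for E2F-like, 41.7% for CCAAT and 6.82% for CHR with CCAAT. Over 26 CHR matches in mitosis genes the median position was 21 bases before the start, with a range of -188 to 41. A TTCGAA match reads the same on both strands and was counted on each. Over 29 E2F-like matches in S phase genes the median was 67 bases before the start, with a range of -235 to 43. A match describes the letters, not binding, and both lists were written from knowledge of how such genes are controlled.

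**Figure D1:**
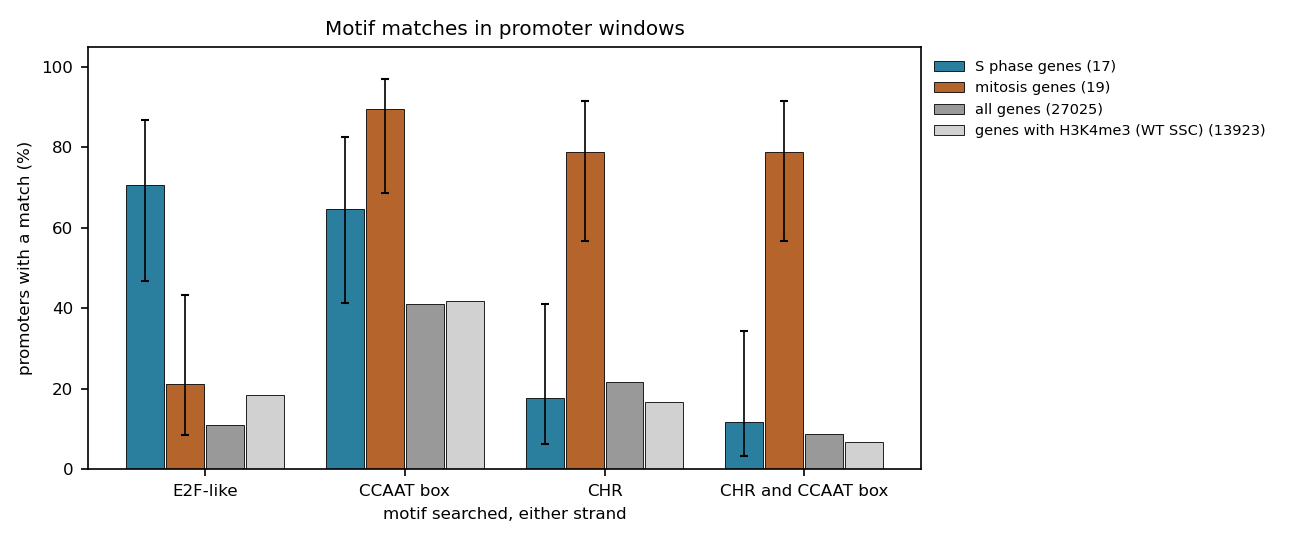
Share of promoter windows (percent, y axis) with a match to each motif (x axis) in S phase genes, mitosis genes, all genes of the promoter table and genes with an H3K4me3 peak in WT SSC; error bars are Wilson 95% intervals and cover sampling of genes only. The CHR bar of mitosis genes stands at 78.9% and the E2F-like bar of S phase genes at 70.6%, each above the grey bars of all genes.

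These promoters carried H3K4me3, the histone mark of active promoters, in every population and genotype. An H3K4me3 peak lay within 1000 bases of the start of 17 of 17 S phase and 19 of 19 mitosis genes in each of the 6 peak lists, against 49.9 to 53.7% of all genes of the table. The table holds 27025 genes, more than the 17494 that passed the filter on low counts, as all 44 genes did. A share among genes that passed was not computed. Each list comes from 1 library, and folds between lists were not compared. Within the WT SSC list the authors' fold enrichment had a median of 12.6 at the S phase genes and 12.8 at the mitosis genes, against 13.4 at all marked starts. Both medians were therefore near that of marked genes in general. Cdc20 had the lowest enrichment of the mitosis genes in all 6 lists, 7.14 to 11.3, and Mcm7 had enrichments of 18.5 to 26.6. H3K4me1, a mark of enhancers and promoter flanks, lay within 1000 bases of 19 of 19 mitosis genes in all 6 lists and of 13 to 17 of 17 S phase genes, against 41.3 to 60.6% of all genes. Where the start itself had to lie inside the peak, only 1 of 19 and 1 of 17 were marked in all 6 lists. H3K27ac, a mark of active chromatin, was called near few of them. Over 12 lists 0 to 4 S phase and 0 to 6 mitosis genes had a peak, and all genes were at 0.163 to 12.8%, so these lists were sparse. Kif11 had an H3K27ac peak in 7 of the 12 lists, the most of any of the genes.

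Averaged over the 3 populations, no S phase or mitosis gene passed an adjusted p of 0.05 between KO and WT in edgeR's quasi-likelihood test. The background was 205 of 17494 genes tested (1.17%), 169 higher (0.966%) and 36 lower (0.206%). At an unadjusted p under 0.05, for which the background was 19.6% (11% higher and 8.57% lower), there was 1 S phase gene (Tyms, higher) and there were 3 mitosis genes (Cdc20, Kif11 and Kif20a, lower). DESeq2, which called 8.71% of all genes, and limma, which called 0.252%, also called 0 of the 44. The 2 sets had different medians. The median log2 difference was -0.46 over the mitosis genes, of which 22 of 23 were below 0, and 0.05 over the S phase genes, of which 12 of 21 were above 0; the median of all genes was -0.09, with 55.3% below 0. Without SSC KO replicate 2 the medians were -0.29 for mitosis and -0.03 for S phase genes, beside -0.06 for all genes. Then 21 of 23 mitosis genes were below 0 and 10 of 21 S phase genes above it, where 46% of all genes were above 0. In pBCSP and BCSP alone the mitosis and S phase medians were -0.19 and 0.06. With SSC KO replicate 1 left out instead, 13 mitosis and 7 S phase genes passed, among 6147 of all genes (32%), and with no filter on low counts 2 mitosis genes passed (Ccnb1 and Cdc20), among 1882 (5.78%). In bulk RNA, fewer dividing cells and less of a transcript in each dividing cell cannot be told apart.

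**Figure D2:**
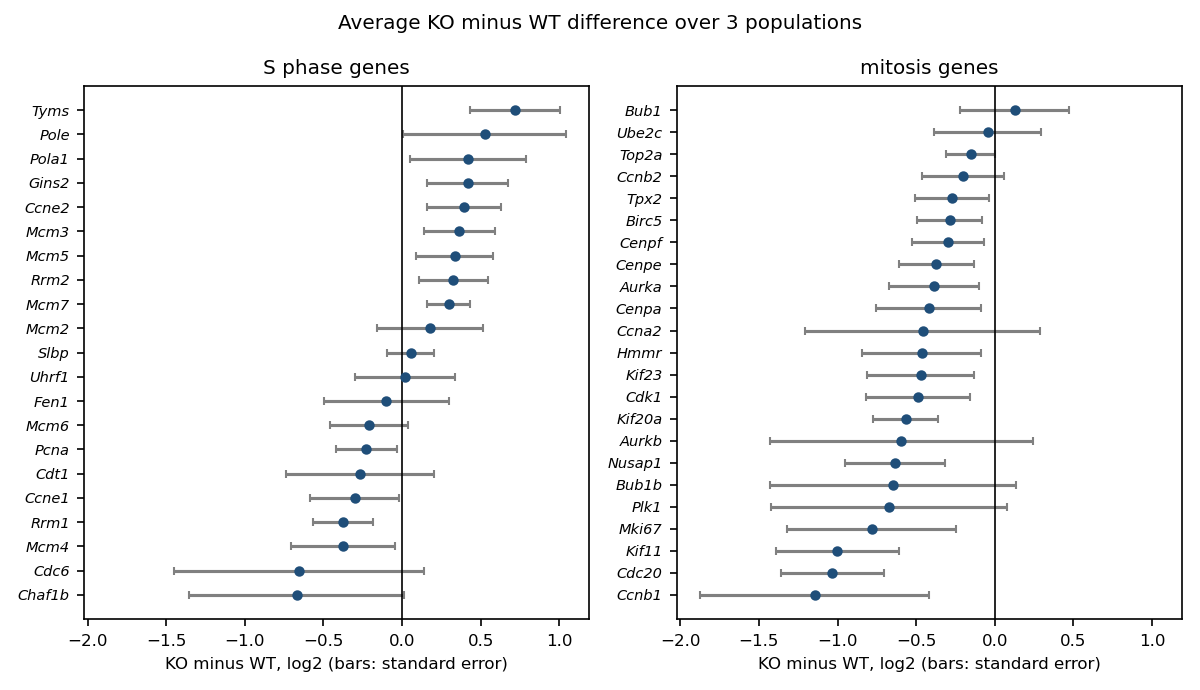
Average KO minus WT log2 difference (x axis) for each S phase gene (left) and mitosis gene (right), from 6 KO and 6 WT libraries; points are edgeR estimates and bars their standard errors. Of the mitosis genes, 22 of 23 points lie left of 0, from Ccnb1 at -1.15 to Ube2c at -0.04, and the S phase points spread to both sides of it.

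The lowest averages among mitosis genes belonged to cyclin B1 and to the factor that has it destroyed. Ccnb1, the cyclin that carries cells into mitosis with Cdk1, was at 63.4 and 84.6 CPM in SSC WT and 40.2 and 0.222 CPM in SSC KO. In pBCSP it was at 65.6 and 77.4 CPM in WT and 32.9 and 27.5 CPM in KO, and in BCSP at 65.2 and 97.7 in WT and 67.2 and 63.0 CPM in KO. KO lay below WT without overlap in SSC and pBCSP, the groups overlapped in BCSP, and SSC KO replicate 2 held 4 counts. Its average difference was -1.15 ± 0.73 log2 (adjusted p = 0.413), -0.82 without SSC KO replicate 2, -3.29 without SSC KO replicate 1 and -0.79 in pBCSP and BCSP alone. Cdc20, the activator of the anaphase-promoting complex, was at 103 and 121 CPM in SSC WT and 53.4 and 22.7 CPM in SSC KO. In pBCSP the levels were 112 and 126 CPM in WT and 88.3 and 25.0 CPM in KO, and in BCSP 77.1 and 123 in WT and 78.0 and 66.5 CPM in KO. WT and KO did not overlap in SSC or pBCSP and overlapped in BCSP. The difference of Cdc20 was -1.03 ± 0.33 log2 (adjusted p = 0.144), the smallest adjusted p of the 44 genes, and -0.87 without SSC KO replicate 2.

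**Figure D3:**
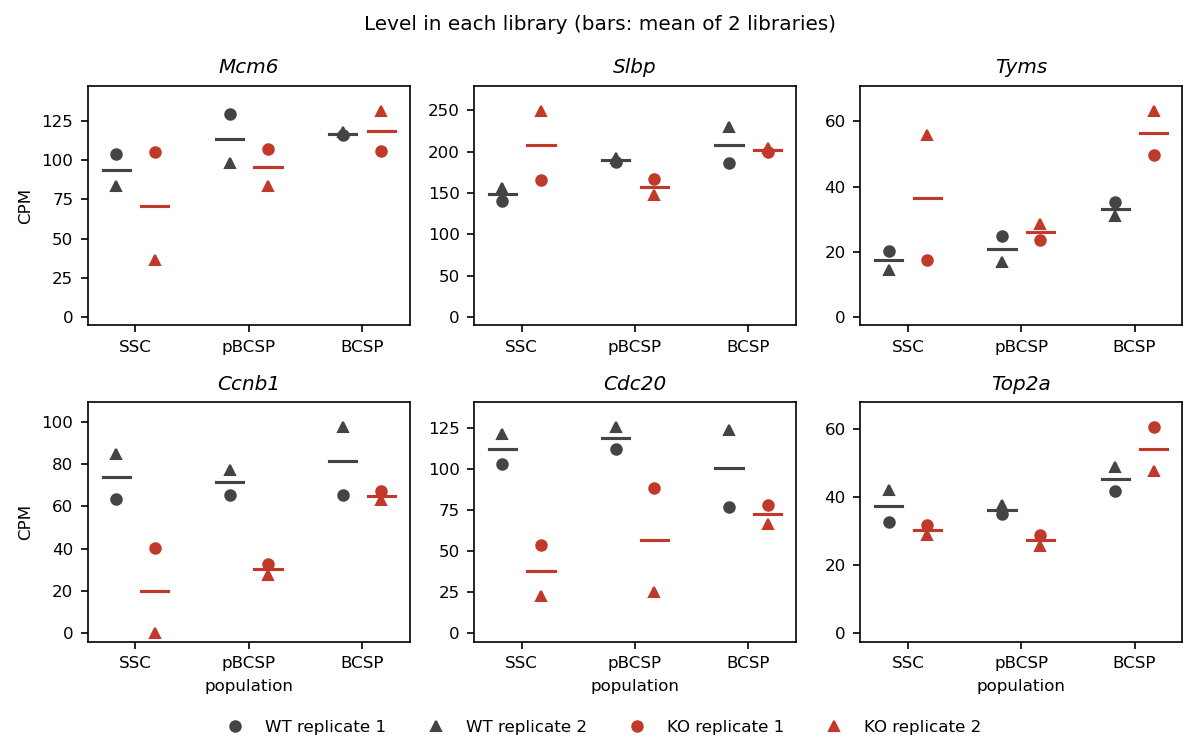
Level (CPM, y axis, linear from 0) of 3 S phase genes (top) and 3 mitosis genes (bottom) in each library, by population (x axis); circles are replicate 1, triangles replicate 2, grey WT, red KO, and short bars the mean of 2 libraries. Ccnb1 and Cdc20 in KO lie below both WT libraries in SSC and pBCSP, and the SSC KO triangle lies near 0 for Ccnb1 and far above the other SSC libraries for Tyms.

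In all 6 KO libraries the level was below the WT mean of the same population for 4 of 23 mitosis genes and 0 of 21 S phase genes, against 14.7% of all genes. The mitosis count was thus near the share of all genes. The 4 were Ccnb1, Cdc20, Cdk1 and Kif11, named here after their values were seen. Cdk1, the mitotic kinase, was at 68.6 and 106 CPM in SSC WT and 78.9 and 21.8 CPM in SSC KO, at 88.3 and 112 in pBCSP WT and 90.3 and 43.4 CPM in pBCSP KO, and at 74.5 and 117 in BCSP WT and 89.9 and 91.6 CPM in BCSP KO (-0.49 ± 0.33 log2, adjusted p = 0.441; -0.27 without SSC KO replicate 2). The replicate 2 libraries of SSC KO and pBCSP KO were low for it and the replicate 1 libraries lay within the WT range. Kif11, the motor that separates the spindle poles, was at 6.40 and 12.5 CPM in SSC WT against 3.6 and 0.832 in SSC KO, at 7.34 and 9.78 against 5.93 and 5.83 in pBCSP, and at 11 and 13.6 against 10.9 and 8.15 in BCSP. Its KO and WT libraries did not overlap in any of the 3 populations, and its average difference was -1.0 ± 0.39 log2 (adjusted p = 0.209; -0.77 without SSC KO replicate 2). All 6 KO libraries were above the WT mean for 2 of 21 S phase genes, Mcm7 and Tyms, and for 0 mitosis genes, against 9.2% of all genes. The S phase count was near that share. Over the 5 KO libraries other than SSC KO replicate 2, the same 4 mitosis genes and 0 S phase genes were below, against 17.5% of all genes. Above were 0 mitosis and 3 S phase genes (Mcm2, Mcm7 and Tyms), against 13.7%. The counts of 4 and 3 were near these shares.

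The SSC comparison held the widest gap between the 2 sets. In edgeR 0 of 17494 genes passed for KO against WT in SSC (9.39% at an unadjusted p under 0.05), and 0.853% were called by DESeq2, none of them among the 44. At an unadjusted p under 0.05 there were 7 mitosis genes (Mki67, Birc5, Cdc20, Cenpf, Kif11, Kif20a and Nusap1) and 1 S phase gene (Rrm1), all lower, against 3.68% of all genes. All 23 mitosis genes had a negative log2 difference, with a median of -1.10, and the S phase median was -0.04; the median of all genes was -0.22. Both KO libraries lay below both WT libraries for 17 of 23 mitosis genes and 2 of 21 S phase genes, against 25.8% of all genes, and above both for 0 and 5, against 13.7%. The 5 were Mcm7, Ccne2, Gins2, Rrm2 and Slbp. Without SSC KO replicate 2 the mitosis median was -0.50 and the S phase median 0.15, beside -0.09 for all genes. All 23 mitosis genes stayed below 0, where 43.4% of all genes were above it. Replicate 1 alone lay below both WT libraries for 18 of 23 mitosis and 4 of 21 S phase genes, against 37.1% of all genes, and above both for 0 and 10, against 32.1%. Without replicate 1 in its place they were -2.29 and 0.28, and 14 mitosis and 9 S phase genes then passed, among 5908 of all genes (30.7%); the SSC KO replicate 2 that remained is then assumed to vary like the other groups.

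Each SSC KO library was compared with the SSC WT mean on the log2(CPM + 0.5) scale. In replicate 1 all 23 mitosis genes and 5 of 21 S phase genes were below it, against 53.4% of all genes, and the list medians were -0.46 and 0.17. In replicate 2, 22 of 23 mitosis genes and 10 of 21 S phase genes were below it, against 63.7% of all genes, with medians of -2.27 and 0.29. The separation of the sets was thus present in each library, with a mitosis minus S phase gap of -0.63 log2 in replicate 1 and -2.56 in replicate 2.

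**Figure D4:**
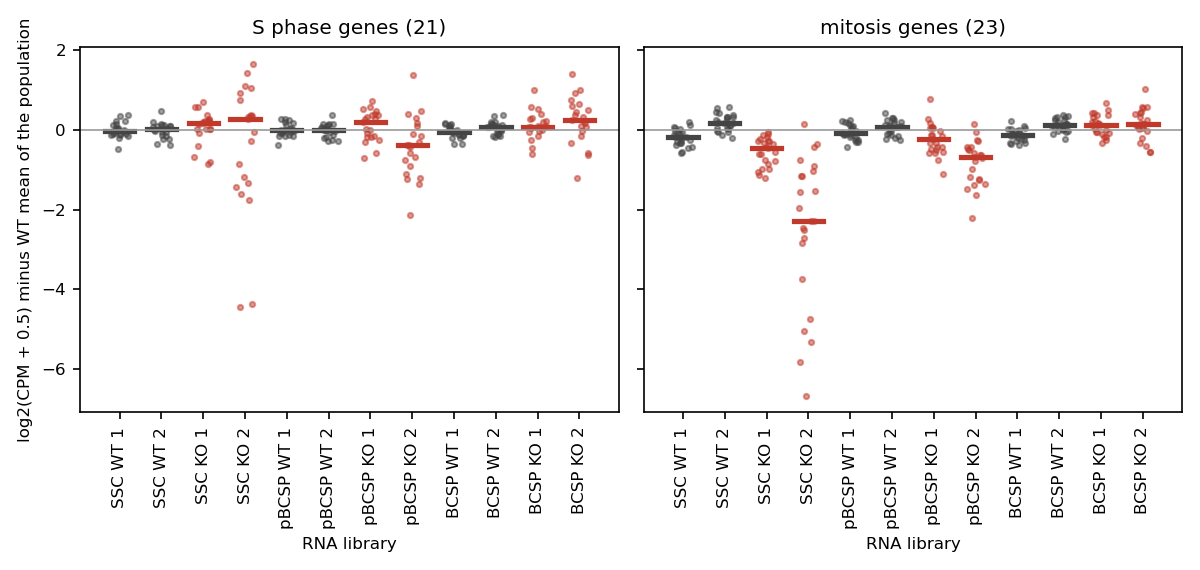
Log2(CPM + 0.5) of each S phase gene (left) and mitosis gene (right) minus the WT mean of its population (y axis) in the 12 RNA libraries (x axis); points are genes, bars list medians, grey WT and red KO. The mitosis medians of the SSC KO libraries are -0.46 and -2.27 and those of the S phase genes 0.17 and 0.29.

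SSC KO replicate 2 was the lowest library for 7 of 21 S phase genes and the highest for 2 (9.52%), and over all genes tested it was the lowest for 36.7% and the highest for 19.9%. Cdc6, which loads the helicase with Cdt1, had 0 counts there, which allows up to 0.166 CPM, against 2.53 to 14.1 CPM in the other 11 libraries. Chaf1b, a subunit of the chromatin assembly factor that follows the fork, had 3 counts against 5.43 to 27.6 CPM elsewhere. Slbp, which binds the stem-loop of histone messages, was at 249 CPM against 141 to 230 CPM, and Gins2, of the active helicase, was at 38.2 CPM against 11.1 to 26.1 CPM. Within the helicase ring Mcm2, Mcm4 and Mcm6 were below the other 11 libraries there, while Mcm3, Mcm5 and Mcm7 were within their range. Of the mitosis genes 19 of 23 were below all other libraries. Aurkb and Bub1b had 0 counts, Ccna2 and Plk1 1 count each, Ccnb1 4 and Mki67 5, whereas Top2a (521 counts), Aurka (219), Bub1 (115) and Cenpe (199) were within the range of the others. Some genes were thus at or near 0 beside others of the same stage at full level.

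**Figure D5:**
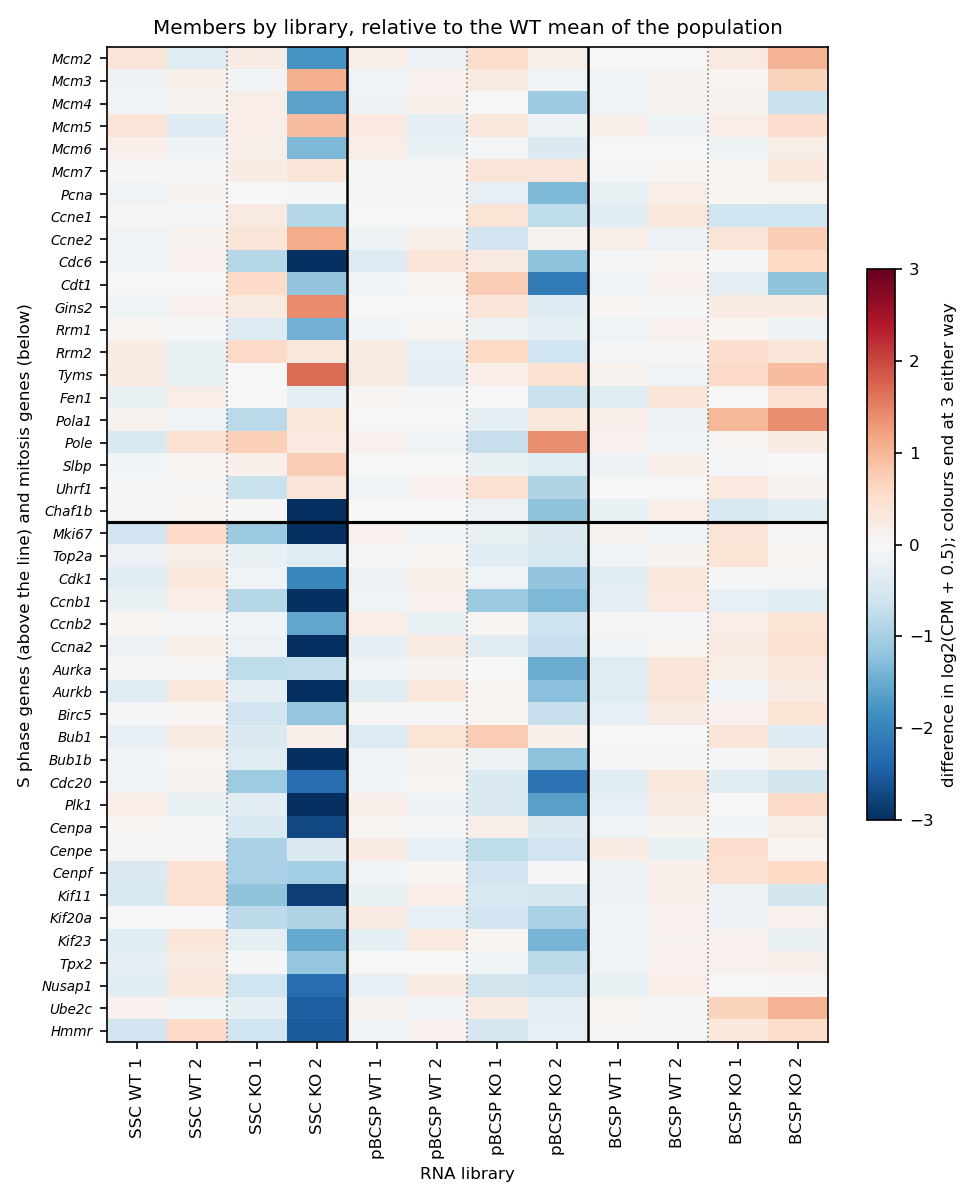
Log2(CPM + 0.5) of all 44 genes (rows; S phase above the line, mitosis below) minus the WT mean of the population, in the 12 RNA libraries (columns; solid lines part the populations, dotted lines WT from KO); red is higher, blue lower, and the colours end at 3. The column of SSC KO replicate 2 is blue for 22 of 23 mitosis genes and mixed for the S phase genes.

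Among the markers of proliferation, Mki67, which coats mitotic chromosomes, was at 6.57 and 14.9 CPM in SSC WT and 4.30 and 0.277 CPM in SSC KO. In pBCSP it was at 10.2 and 8.48 in WT and 7.95 and 6.83 CPM in KO, and in BCSP at 9.86 and 8.49 in WT and 12.1 and 9.37 CPM in KO (average -0.78 ± 0.54 log2, adjusted p = 0.447; -0.48 without SSC KO replicate 2). The WT replicates of SSC were themselves far apart. Top2a, which untangles sister chromatids, was at 32.8 and 42.1 CPM in SSC WT, 31.7 and 28.9 in SSC KO, 35.2 and 37.7 in pBCSP WT, 28.8 and 25.8 in pBCSP KO, 41.8 and 49.0 in BCSP WT and 60.8 and 47.9 CPM in BCSP KO. KO was lower without overlap in SSC and pBCSP, by little, and its average was -0.15 ± 0.16 log2 (adjusted p = 0.619). Hmmr, which organises spindle microtubules, had -0.46 ± 0.38 log2 (adjusted p = 0.524) and Cenpf, a kinetochore protein, -0.30 ± 0.23 log2 (0.505). Leaving out SSC KO replicate 2 gave averages of -0.13 for Top2a, -0.23 for Hmmr and -0.29 log2 for Cenpf.

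For the kinases and cyclins that drive entry, values turned on SSC KO replicate 2. Ccna2, the cyclin of S phase and G2, was at 19.2 and 25.0 CPM in SSC WT and 19.5 and 0.0554 CPM in SSC KO, at 19.1 and 27.6 in pBCSP WT and 18.1 and 13.9 CPM in pBCSP KO and at 26.1 and 28.9 in BCSP WT and 32.5 and 37.7 CPM in BCSP KO, so that BCSP KO was above BCSP WT. Aurkb, the kinase of the chromosomal passenger complex, was at 22.5 and 35.1 CPM in SSC WT and 23 and 0 CPM in SSC KO, at 23.9 and 36.9 in pBCSP WT and 30.7 and 12.2 CPM in pBCSP KO and at 26.3 and 43.6 in BCSP WT and 31.7 and 40.4 CPM in BCSP KO. Plk1, the Polo kinase, was at 20.6 and 15.3 CPM in SSC WT and 14.0 and 0.0554 in SSC KO, at 20.1 and 15.9 in pBCSP WT and 13.2 and 5.47 in pBCSP KO, and at 17.5 and 24.6 in BCSP WT and 20.7 and 31.0 CPM in BCSP KO. In all 3 genes the lowest values were in replicate 2 of SSC KO and pBCSP KO. For Plk1 in SSC and pBCSP, and for Ccna2 in pBCSP, KO replicate 1 also lay below both WT libraries. Average differences were -0.46 ± 0.75 for Ccna2, -0.59 ± 0.83 for Aurkb and -0.67 ± 0.75 log2 for Plk1, each smaller than its standard error (adjusted p = 0.763, 0.723 and 0.649). Birc5, the passenger complex subunit survivin, had -0.29 ± 0.20 log2 (adjusted p = 0.468), with KO below WT without overlap in SSC at 24.9 and 16.2 against 35.6 and 38.6 CPM. With SSC KO replicate 2 left out the averages were -0.13 for Ccna2, -0.26 for Aurkb, -0.34 for Plk1 and -0.20 log2 for Birc5, so the first 3 moved toward 0 by more than 1.5 times.

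The highest averages among mitosis genes were those of Bub1, a checkpoint kinase, at 0.13 ± 0.35 log2 (adjusted p = 0.866) and Ube2c, the ubiquitin-conjugating enzyme of the anaphase-promoting complex, at -0.04 ± 0.34 log2 (0.96). Ube2c was at 29.5 and 27.6 CPM in BCSP WT and 45.6 and 58.5 CPM in BCSP KO, and at 33.9 and 28.5 CPM in SSC WT and 25.7 and 5.21 CPM in SSC KO. It lay above WT without overlap in the first and below it in the second, and in pBCSP and BCSP alone its difference was 0.44 log2. Bub1 was at 0.007 and Ube2c at 0.20 log2 without SSC KO replicate 2.

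Differences of both signs were found among the S phase genes. Tyms, thymidylate synthase, was at 20.2 and 14.6 CPM in SSC WT and 17.5 and 55.7 CPM in SSC KO, at 24.9 and 17.1 in pBCSP WT and 23.7 and 28.7 CPM in pBCSP KO and at 35.4 and 30.9 in BCSP WT and 49.7 and 63.3 CPM in BCSP KO. KO and WT did not overlap in BCSP and overlapped in the other 2 populations. Its average difference of 0.72 ± 0.29 log2 was the highest of the S phase genes (adjusted p = 0.214). It was 0.36 without SSC KO replicate 2, 0.93 without SSC KO replicate 1 and 0.54 in pBCSP and BCSP alone. Pole, the leading-strand polymerase, was next at 0.53 ± 0.52 log2 (adjusted p = 0.604) with levels of 0.757 to 4.84 CPM, and the sign turned to -0.10 without pBCSP KO replicate 2 (0.60 without SSC KO replicate 2). Mcm7 was at 39.4 and 37.2 CPM in SSC WT and 45.1 and 49.5 in SSC KO, at 37.2 and 39.1 in pBCSP WT and 49.4 and 50.1 in pBCSP KO and at 50.5 and 55.2 in BCSP WT and 56.0 and 65.7 CPM in BCSP KO. KO was above WT without overlap in each population, by a small step (0.30 ± 0.14 log2, adjusted p = 0.27; 0.27 without SSC KO replicate 2).

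The lowest S phase averages were those of Chaf1b (-0.67 ± 0.68 log2, adjusted p = 0.617) and Cdc6 (-0.65 ± 0.80, 0.677). Chaf1b was at 13.4 and 14.5 CPM in SSC WT and 14.2 and 0.166 CPM in SSC KO, at 13.4 and 13.2 in pBCSP WT and 11.6 and 5.43 CPM in pBCSP KO and at 21.0 and 27.6 in BCSP WT and 17.3 and 19.2 CPM in BCSP KO, below WT without overlap in pBCSP and BCSP. Cdc6 was at 8.87 and 10.8 CPM in SSC WT and 5.20 and 0 CPM in SSC KO, at 4.94 and 8.70 in pBCSP WT and 8.01 and 2.53 CPM in pBCSP KO and at 8.63 and 9.5 in BCSP WT and 8.85 and 14.1 CPM in BCSP KO. Both had their low values mainly in SSC KO replicate 2 and pBCSP KO replicate 2; with SSC KO replicate 2 left out they were -0.34 and -0.32 log2, and with SSC KO replicate 1 left out -2.45 and -3.51.

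For the other S phase genes described by library no adjusted p was under 0.05. Mcm2, of the helicase ring, had an average of 0.18 ± 0.34 log2 (adjusted p = 0.803), with levels of 28.6 and 17.3 CPM in SSC WT, 25.9 and 6.21 in SSC KO, 34.4 and 33.8 in BCSP WT and 41.2 and 69.2 CPM in BCSP KO. Mcm5 had 0.33 ± 0.24 log2 (0.477). Pcna, the sliding clamp, had -0.23 ± 0.20 log2 (0.552), and 11 of its levels ran from 92.4 to 127 CPM, with 46.2 CPM in pBCSP KO replicate 2. The cyclins E, which open S phase, differed in sign, with Ccne1 at -0.30 ± 0.28 log2 (0.588) and Ccne2 at 0.39 ± 0.24 log2 (0.386). Rrm2, the small subunit of ribonucleotide reductase, had 0.33 ± 0.22 log2 (0.44), Uhrf1, which keeps DNA methylation through replication, 0.02 ± 0.32 log2 (0.985) and Slbp 0.05 ± 0.15 log2 (0.867). The averages without SSC KO replicate 2 were 0.40 for Mcm2, 0.19 for Mcm5, -0.22 for Pcna, -0.15 for Ccne1, 0.25 for Ccne2, 0.36 for Rrm2, -0.20 for Uhrf1 and -0.06 log2 for Slbp. Uhrf1 and Slbp thereby changed sign, and Mcm2, Mcm5, Ccne1 and Ccne2 moved by more than 1.5 times.

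In pBCSP the mitosis genes had a median difference of -0.53 log2, with 21 of 23 below 0, and the S phase genes of -0.07, with 12 of 21 below 0; the median of all genes was -0.03. In edgeR 0 of 17494 genes passed, 6.27% were at an unadjusted p under 0.05 and 0 of these were among the 44; DESeq2 called 0.483% of genes and none of the 44. KO lay below WT without overlap for 13 mitosis and 4 S phase genes, against 24% of all genes, and above it for 0 and 2, against 21.2%. By library the mitosis medians were -0.22 and -0.68 and the S phase medians 0.20 and -0.38. Both sets were therefore lowest in pBCSP KO replicate 2. In that library 22 of 23 mitosis and 15 of 21 S phase genes were below the WT mean, against 51.9% of all genes. The S phase median was -0.39 without replicate 1 and 0.18 without replicate 2, so its sign rests on which library is used.

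In BCSP no such separation was present. The medians were 0.14 log2 for mitosis genes and 0.20 for S phase genes, beside -0.01 for all genes. KO was above WT without overlap for 6 mitosis genes (Ccnb2, Ccna2, Cenpf, Tpx2, Ube2c and Hmmr) and 9 S phase genes, against 24.2% of all genes, and below it for 1 mitosis gene (Kif11) and 3 S phase genes (Ccne1, Cdt1 and Chaf1b), against 26.4%. No gene of 17494 passed in edgeR (6.26% at an unadjusted p under 0.05, 0 of them among the 44), and DESeq2 called 0.688% and none of the 44. With 1 BCSP library left out the mitosis median ran from 0.02 (without WT replicate 1) to 0.26 (without WT replicate 2), and the S phase median was 0.083 without KO replicate 2. Paxip1 was at 3.48 and 0.791 CPM in the BCSP KO libraries, and at 0 to 0.568 CPM in those of SSC and pBCSP. The part of this remaining Paxip1 in the BCSP values was not tested.

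Whether the KO difference varied between populations was tested directly, by an F test over the 3 population effects. In edgeR 0 of 17494 genes passed and 240 (1.37%) were at an unadjusted p under 0.05, 0 of them S phase or mitosis genes, where the smallest unadjusted p was 0.0545 for mitosis and 0.157 for S phase. DESeq2 called 0.00614% of genes and limma 0, with 0 of the 44 in either. For no single gene, then, was the negative difference in SSC or pBCSP shown to differ from that in BCSP. Without SSC KO replicate 1, 11 mitosis and 3 S phase genes passed, among 2082 of all genes (10.8%), and without SSC KO replicate 2, 0 of the 44 and 0 of all genes passed.

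Between the WT populations no gene passed in edgeR, and levels there are described by the order of the libraries only. Both BCSP libraries lay above both SSC libraries for 17 of 21 S phase genes, against 20.8% of all genes, and for 5 of 23 mitosis genes. They lay below for 1 (Pola1) and 0, against 22.6%. The median log2 difference was 0.48 for S phase genes and 0.19 for mitosis genes, and -0.05 for all genes. The mitosis median changed sign without SSC WT replicate 1 (-0.004) and without BCSP WT replicate 2 (-0.06). BCSP was above pBCSP without overlap for 12 S phase and 5 mitosis genes, against 22.2%, and below it for 1 (Pola1) and 1 (Cenpf), against 23.1%. Between pBCSP and SSC the S phase genes were split, 4 above and 5 below (18.8% and 16.6% of all genes), and the mitosis genes were 3 above and 2 below. No gene of 17494 passed in edgeR in any of the 3 WT comparisons (1.89% at an unadjusted p under 0.05 for pBCSP against SSC, 2.62% for BCSP against pBCSP and 3.48% for BCSP against SSC), and 0 of the 44 were among those. DESeq2 called 0.141%, 0.132% and 0.373% of genes and none of the 44.

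By gene, Rrm2 was at 72.4 and 52.3 CPM in SSC WT, 96.1 and 67.1 in pBCSP WT and 108 and 112 CPM in BCSP WT (BCSP minus SSC 0.82 ± 0.38 log2, adjusted p = 1). Tyms was at 20.2 and 14.6 in SSC, 24.9 and 17.1 in pBCSP and 35.4 and 30.9 CPM in BCSP (0.93 ± 0.50 log2, 1). Both were highest in BCSP without overlap, while SSC and pBCSP overlapped. Ccne1 was at 21.4 and 20.5 CPM in SSC WT, 22.4 and 22.7 in pBCSP WT and 34.2 and 55.6 CPM in BCSP WT (1.10 ± 0.50 log2, adjusted p = 1). Mcm5 was at 23.7 and 13.7 in SSC, 21.1 and 14.0 in pBCSP and 29.7 and 24.3 CPM in BCSP and Uhrf1 at 11.1 and 11.5 in SSC, 8.41 and 9.99 in pBCSP and 14.3 and 13.9 CPM in BCSP. For mitosis genes the steps were smaller: Top2a was at 32.8 and 42.1 in SSC, 35.2 and 37.7 in pBCSP and 41.8 and 49.0 CPM in BCSP, with SSC and BCSP overlapping.

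The median Pearson r of log2 CPM over pairs was 0.78 among mitosis genes (253 pairs) and 0.30 among S phase genes (210 pairs). Between an S phase and a mitosis gene it was 0.28 (483 pairs), near the value within the S phase genes. Without SSC KO replicate 2 these were 0.61, 0.48 and 0.45. Pairs share the same libraries, so the values describe these 12 only. The genes most like Top2a over the 12 libraries were Cks2 (r = 0.93), Smc2 (0.91) and Upk3bl (0.86), and those most like Mcm5 were Gm7666 (0.91), Gen1 (0.91) and Ak1 (0.90).

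Further genes of the 2 stages were taken from lists of their own. Of 40 other mitosis genes 35 had a negative average difference (median -0.42 log2), and of 36 other replication genes 27 had a positive one (median 0.16), beside 55.3% of all genes below and 44.7% above 0. When SSC KO replicate 2 was left out the counts were 34 of 40 below 0 (median -0.28) and 18 of 36 above 0 (median -0.003). In that library the other replication genes had a median of 0.50 log2(CPM + 0.5) against the WT mean. In SSC KO replicate 1 and pBCSP KO replicate 1 their medians were -0.15 and -0.16, where those of the 21 S phase genes were 0.17 and 0.20, so the 2 replication lists had opposite signs there. In edgeR 0 of either list passed, against 1.17% of all genes. At an unadjusted p under 0.05 there were 4 of 40 and 6 of 36, against 19.6%. DESeq2 called 1 and 3, against 8.71%. The 8 replication-dependent histones tested, whose messages mostly lack a poly(A) tail and are poorly caught by this library type, had a median of 0.25 log2 with 0 called in edgeR, and of 0.086 without SSC KO replicate 2.

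Of 29 regulators of these programs 1 passed in edgeR, against 1.17% of all genes, and DESeq2 called 5, against 8.71%. E2f1, the activating E2F of S phase entry, was at 7.55 and 6.92 CPM in SSC WT and 16.1 and 54.3 CPM in SSC KO. In pBCSP it was at 10.1 and 6.32 CPM in WT and 25.5 and 33.4 CPM in KO, and in BCSP at 14.3 and 12.5 in WT and 20.1 and 34.1 CPM in KO. KO was above WT without overlap in each population. The average difference of E2f1 was 1.71 ± 0.33 log2 (3.28-fold, adjusted p = 0.0494 in edgeR, 0.000214 in DESeq2, 0.157 in limma). Paxip1, the deleted gene, was called on average (-4.52 log2) but in no single population, where 0 of 17494 genes passed. Its call on average was lost in 11 of 19 alternatives. That of E2f1 was lost in 14 of 19. The call is at the threshold: over 19 alternatives the difference was 1.33 to 1.93 log2 and the adjusted p 0.000139 to 0.591, and the call was lost without either replicate of SSC WT, pBCSP WT, BCSP WT or pBCSP KO, or without BCSP KO replicate 2 (0.076 to 0.216). Without SSC KO replicate 2 the difference of E2f1 was 1.33 log2. Foxm1, the forkhead factor of mitosis genes, was at 1.52 to 5.19 CPM (-0.59 ± 0.37 log2, adjusted p = 0.409), and Mybl2, which encodes B-Myb, had -0.66 ± 0.83 log2 (0.688) with 0 counts in SSC KO replicate 2. Ccnd1, the G1 cyclin, had -0.38 ± 0.19 log2 (0.303). Over the other 11 libraries the averages were -0.78 for Foxm1, -0.33 for Mybl2 and -0.33 log2 for Ccnd1. Among the 29, Cdk6, a kinase of G1 chosen here after its value was seen, was then at -0.94 ± 0.16 log2. With all libraries it was at -1.13 ± 0.25 log2 (adjusted p = 0.0676 in edgeR).

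Of the inhibitors of cyclin-dependent kinases 0 of 6 passed. Cdkn1a, which encodes p21, was at 923 and 869 CPM in SSC WT and 1124 and 231 in SSC KO, at 886 and 906 in pBCSP WT and 1043 and 62.0 in pBCSP KO and at 637 and 683 in BCSP WT and 633 and 241 CPM in BCSP KO (-0.56 ± 0.60 log2, adjusted p = 0.632). In each population the replicate 2 KO library was far below the other 3. Cdkn1c, which encodes p57 of maturing chondrocytes, had 0.55 ± 0.26 log2 (adjusted p = 0.272). Cdkn1a was at -0.32 and Cdkn1c at 0.51 log2 without SSC KO replicate 2.

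Cell type markers were measured in the same libraries. Of 10 chondrocyte markers 9 were higher on average in KO (median 1.08 log2), against 44.7% of all genes. In edgeR 5 of the 10 were called higher, against 0.966% of all genes. With the estimated correlation of 0.33 between same-numbered libraries of a genotype, limma called 2 of 10, and without SSC KO replicate 2 edgeR called 4. The markers had summed levels of 45620 to 51371 CPM in pBCSP WT, 69101 to 82127 in pBCSP KO, 32232 to 46797 in BCSP WT and 54426 to 85903 in BCSP KO, and with overlap in SSC (55584 to 89656 in WT, 66659 to 79645 in KO). The 7 osteoblast markers summed to 12170 to 12759 CPM in SSC WT and 1868 to 7360 in SSC KO, to 22025 to 22560 in pBCSP WT and 8432 to 18549 in pBCSP KO, and to 34675 to 40249 in BCSP WT and 8718 to 19495 in BCSP KO; 0 of 7 passed. The 8 skeletal progenitor markers summed to 308 to 418 CPM in pBCSP WT and 154 to 217 in pBCSP KO. Their sums were 676 to 774 in BCSP WT and 165 to 455 in BCSP KO. With overlap they were 409 to 473 in SSC WT and 391 to 474 in SSC KO. In edgeR 0 of 8 passed. Below the WT mean were 8 of 8 in both pBCSP KO libraries, against 52.1% and 51.9% of all genes. In BCSP KO replicates 1 and 2 there were 7 and 8 (all genes 50.6% and 52.6%). In SSC KO replicates 1 and 2 there were 6 and 5 (all genes 53.4% and 63.7%). The 8 endothelial markers summed to 48.5 to 57.4 CPM in pBCSP WT and 5.65 to 34.3 in pBCSP KO, to 42.4 to 53.2 in BCSP WT and 10.5 to 24.8 in BCSP KO, and with overlap to 10.4 to 11.3 in SSC WT and 7.71 to 23 in SSC KO, and 0 of 8 passed. Of 10 erythroid markers 9 were found, red cell precursors being fast dividers. They summed to 48.5 to 100.5 CPM in SSC WT and 13.9 to 31.9 in SSC KO. In pBCSP the sums were 39.3 to 262 CPM in WT and 8.71 to 13.6 in KO. In BCSP they were 23 to 72.8 CPM in WT and 2.62 to 14.0 in KO. WT and KO overlapped in no population. Their median difference was -2.79 log2, and -2.84 without SSC KO replicate 2. In edgeR 0 of 9 passed and 5 were lower at an unadjusted p under 0.05, against 8.57% of all genes. DESeq2 called 4 of 9, all lower, against 8.71% of all genes in either direction. The 12 leukocyte markers summed to 8.18 to 12.2 CPM in SSC WT and 12.3 to 77.7 in SSC KO, the higher in replicate 2. In pBCSP the sums were 36.4 to 42.9 CPM in WT and 12.2 to 16.8 in KO, with overlap in BCSP. The 9 skeletal muscle markers overlapped in each population. Their sums in BCSP were 389 to 582 CPM in WT and 58.1 to 427 in KO, the lower in replicate 2. In edgeR 0 of the 10 leukocyte and 0 of the 6 muscle markers tested passed. The part of all these markers' cell types in the mitosis and S phase values was not tested.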

How the data were processed

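Per the labels' protocols, poly(A) RNA was sequenced, and chromatin for histone ChIP was cut with MNase. Build GRCm38 and the tools featureCounts 2.0.1, MACS2 2.2.6, Bowtie2 2.3.5.1, SAMtools 1.9 and Trim Galore 0.6.6 are named in the submitters' processing notes. Their settings, the annotation and any use of strand were, in the sources used here, not given, so reads of overlapping, antisense or near-identical copies may be split or added. The authors deposited whole-number counts per gene, not normalised. For each ChIP library they deposited a peak list with, per the file layout of MACS2, a score, a fold enrichment (a ratio), and -log10 p and -log10 q values. The 24 ChIP libraries were called separately; 12 inputs were not used here.

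Counts were scaled by TMM (trimmed mean of M values) and filtered with filterByExpr; the 12 libraries then entered a single model with 6 group means in edgeR 4.0.16 (R 4.3.3; quasi-likelihood test, Benjamini-Hochberg adjustment over 17494 genes, threshold 0.05). Differences are log2 ± standard error, from 2 libraries a group or 6 a genotype. The model took these 6 as independent, although same-numbered libraries of a genotype deviated together (r = 0.36 to 0.45 in WT, 0.34 to 0.55 in KO). Standard errors and p-values of the average comparison may therefore be too small. Counts over all 6 KO libraries may rest on fewer independent units. Alternatives were DESeq2 1.42.0, limma 3.58.1, other scaling, no filter, each library left out and others given in the closing section. CPM uses the scaled library sizes; list medians by library use log2(CPM + 0.5). A count of 0 was taken to allow 3 counts, which covers counting error only. Scripts were tested on simulated counts. IDs were paired with symbols for 55141 of 55487 genes. A peak was assigned to a start site within 1000 bases, and promoter sequences and start sites come from RefSeq on GRCm38.p6, the build of the files. Promoters of 8 genes were not analysed here. The share of motif matches in genes with an H3K4me3 peak and the counts of libraries that do not overlap without SSC KO replicate 2 were added after values were seen.

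The 44 genes and all other gene lists were chosen with earlier results of these data known. The genes described by library were Mcm2, Mcm5, Pcna, Ccne1, Ccne2, Cdc6, Rrm2, Tyms, Uhrf1, Slbp, Mki67, Top2a, Cdk1, Ccnb1, Ccna2, Aurkb, Birc5, Cdc20, Plk1, Cenpf and Hmmr; the 2 lowest and 2 highest average differences of each set; any of the 44 that passed; the regulators Foxm1, Mybl2, E2f1, Ccnd1, Cdkn1a and Cdkn1c; and the 3 genes most like Top2a and Mcm5 in Pearson r of log2 CPM.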

Additional observations from a re-analysis of the deposited data

How the results depend on the processing

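Over 19 alternatives for the average comparison, 17 to 19 for the others, the mitosis median stayed negative on average (-0.88 to -0.19 log2), in SSC (-2.29 to -0.50) and in pBCSP (-0.69 to -0.23), and 0 of the 44 genes were called in pBCSP, BCSP or the WT comparisons under any. Without SSC KO replicate 1 the counts reached 7 S phase and 13 mitosis genes on average, 9 and 14 in SSC and 3 and 11 for the difference between populations, and they were 0 without any other library. With no filter on low counts 2 mitosis genes were called on average (5.78% of all genes) and 2 in SSC (1.21%). With a library left out the S phase median ran from -0.058 to 0.28 in SSC and from -0.39 to 0.18 in pBCSP, and in BCSP from 0.083 to 0.22 (mitosis 0.02 to 0.26). With a library left out Pole ran from -0.10 (pBCSP KO replicate 2) to 0.80, Bub1 from -0.035 (BCSP KO replicate 1; -0.01 without pBCSP WT replicate 1) to 0.31 and Ube2c from -0.56 to 0.20. Ube2c turned to 0.44 in pBCSP and BCSP only, 0.16 with counts summed over populations, 0.20 without SSC KO replicate 2, 0.04 without pBCSP KO replicate 2 and 0.004 without BCSP KO replicate 1. The cause was not tested. With the replicate number as a block, 0 of the 44 genes were called and the average medians were 0.05 (S phase) and -0.53 (mitosis); all genes called were 141 against 205. Same-numbered KO and WT libraries of a population did not deviate together (r = 0.0024, -0.02 and -0.09), so the block pairs nothing across genotypes, whereas same-numbered libraries of a genotype did (0.36 to 0.45 in WT, 0.34 to 0.55 in KO); a block within genotype, added after seeing the data, left 0 of the 44 called in the WT comparisons. On the strand of the gene only, CCAAT matches were in 41.2% of S phase and 57.9% of mitosis genes, and CHR with CCAAT in 42.1% of mitosis genes. Where the start had to lie in the peak, H3K4me1 in every list fell to 5.88% of S phase and 5.26% of mitosis genes and H3K27ac in any list to 0% of mitosis genes. At a -log10 q of 10 or more, H3K4me1 was at 0% of both, and H3K27ac at 5.88% of S phase and 0% of mitosis genes, as fewer peaks pass. Depth was 15495915 counts or more and limits only genes near 0.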
